A study of Saccharomyces cerevisiae with 8 samples.

Results

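The nuclear tRNA genes of Saccharomyces cerevisiae were followed in maps of open chromatin. The set holds all 275 nuclear genes that the sacCer3/R64 annotation classes as tRNA, of 6477 annotated genes of all kinds. A peak was assigned to a gene when its summit lay within 200 bp of either end of the gene, and 304 to 305 sub-peaks per list met this rule. The assay was ATAC-seq: the transposase Tn5 inserts sequencing adapters wherever DNA is exposed. S288c was the background of every sample, and all cells were haploid and MATa, taken as whole populations. The design has 8 samples in 4 groups of 2 independent experiments. The first pair of groups is the control strain CEN4, whose chromosome IV centromere carries no lox sites, at 0 min without treatment and at 180 min with 1 µM beta-estradiol. The other pair is the strain CEN4*, with lox sites on both sides of that centromere, at 0 min without treatment, and its cen4- form after excision by Cre recombinase, at 180 min with 1 µM beta-estradiol. The 4 lists analysed are named for strain codes 8 and 11 at each time, and no label ties a code to CEN4 or to CEN4*. The strains are therefore called code 8 and code 11.

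A tRNA gene is transcribed by RNA polymerase III from a promoter that lies inside the gene. Its A and B boxes are bound by the factor TFIIIC, which places TFIIIB just upstream of the start, and TFIIIB recruits the polymerase. In yeast these genes are known as short stretches free of nucleosomes, flanked by positioned ones, and many sit in clusters of retrotransposon insertions. Most belong to families of near-identical copies. How reads that match several copies were placed was not given in the sources used here, so the height at one copy may include reads of another.

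Each list holds 6588 to 7093 sub-peaks, each with a summit. The number of reads is unknown. The height used here is the relative pileup, the number of sequenced fragments or reads stacked over the summit divided by the genome-wide background of the same list. Both quantities were solved from the fold and p deposited by the authors. For 0 and 180 min the genome-wide background of code 8 was 414 and 439. That of code 11 was 602 and 512, higher at both times. Promoters of MATa-specific genes had a summit in 7 of 7 cases in every list, and those of MATalpha-specific genes in 1 of 4, or in 2 of 4 in code 11 at 180 min. By the same rule 64.3 to 65.6% of all 6002 protein-coding genes had a promoter summit. Since each code and time has 1 list, replicates could not be compared, and all differences are described without a test.

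Almost every tRNA gene was open. In each of the 4 lists 272 of 275 genes had a summit in the window, a share of 98.9% (exact Clopper-Pearson 95% interval 96.8 to 99.8%, counting error only). The windows of protein-coding starts, reaching 236 bp to either side, held a summit in 50.8 to 52.9% of 6002 genes. With a window from 400 bp before the start to 100 bp after it, the share was 64.3 to 65.6%. Small nucleolar RNA genes, another class of short noncoding genes, held one in 61.8 to 65.8% of 76. Of the tRNA genes, 232 to 235 had a single summit, 34 to 39 had 2 and 1 to 3 had 3. The windows of 12 genes overlap in 6 pairs, so the set amounts to 269 separate loci.

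The same 3 genes lacked a summit in all 4 lists. YNCC0008W (chromosome III 149920 to 149991, sacCer3) and YNCC0009C (III 151284 to 151356) are neighbours between SRD1 and MAK32, and the nearest summit lay 2116 to 2121 bp from the former and 3480 to 3485 bp from the latter. YNCK0019W (XI 517988 to 518060) lies between GAP1, the general amino acid permease gene, and YKR041W. A called region came within 69 to 78 bp of it, but the nearest summit was 422 to 636 bp away. By the summit nearest to each gene, YNCD0026W came closest to the 200 bp limit, at 161 to 168 bp, and 261 to 263 genes had a summit within 100 bp. The strongest summit of a gene was the one with the largest -log10 q of the authors' caller. It could lie farther out, up to 185 to 194 bp per list, with the largest distance at YNCG0029C in code 11 at 180 min.

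The summits at tRNA genes were of moderate and uniform height. The strongest summit per gene had a median relative pileup of 5.04 (0 min) and 4.89 (180 min) in code 8, and of 5.07 and 5.05 in code 11. The median over all sub-peaks was 2.93, 2.97, 2.83 and 3.02 in the same order. That of promoter summits not at a tRNA gene was 3.13, 3.14, 3.07 and 3.23. The tRNA median thus stood at percentile 76.8 to 80.1 of all sub-peaks. Between 92.3 and 95.6% of the tRNA genes lay above the median of their list, yet only 10.7 to 14.3% lay in its top decile. Over all summits in the tRNA windows, and not only the strongest per gene, 89.5 to 91.8% lay above that median. The middle of the distribution was narrow, with the first quartile at 3.91 to 4.07 and the third at 5.97 to 6.24. Called regions that held the strongest summit of a tRNA gene had median widths of 601 to 673 bp, against 423 to 445 bp for all regions. Widths were not compared among regions with summits of like height.

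**Figure D1:**
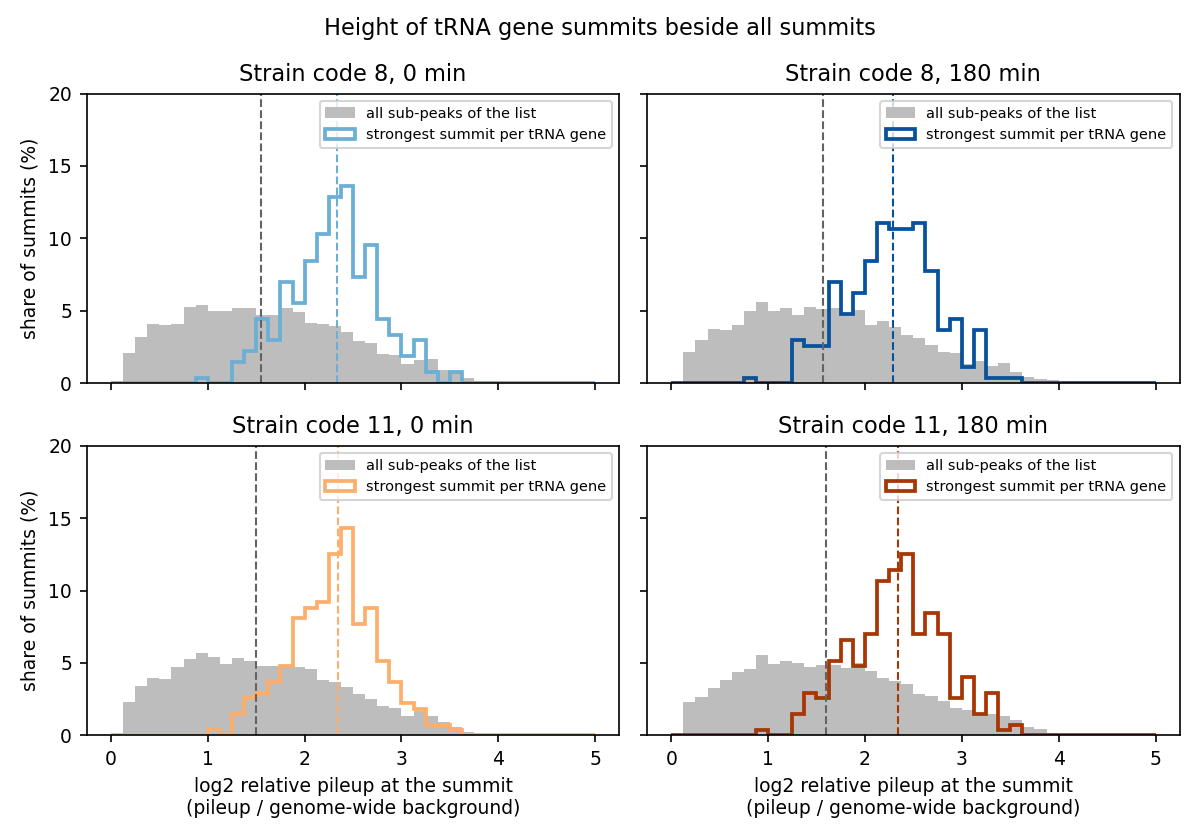
Distribution of summit height, as log2 relative pileup, in the 4 lists. Grey bars show the share of all sub-peaks, the coloured line the share of the 272 tRNA genes with a summit, and dashed lines the medians (for tRNA genes 5.04, 4.89, 5.07 and 5.05 on the linear scale). The tRNA genes form a single narrow hump in the upper part of each list.

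The order of the genes was stable. Across the 272 genes the rank correlation of heights between any pair of lists was 0.965 to 0.989, and 65 of the 68 highest genes of code 8 at 0 min were also among the 68 highest of code 11 at 0 min. The points share the list-wide depth and, for members of a family, similar sequence. The mean height over the 4 lists differed 6.15-fold between the highest and the lowest gene.

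In the order code 8 at 0 and 180 min, code 11 at 0 and 180 min, the relative pileup of the highest gene, YNCG0033W (VII 739122 to 739195), was 11.4, 11.3, 11.6 and 12.3. YNCE0018W (V 354934 to 355005) followed with 11.4, 10.6, 10.9 and 11.0. SUF2 (III 123577 to 123648), a proline tRNA gene known from frameshift suppressors, had 9.63, 10.3, 10.0 and 9.98. All 4 lists put these genes far above the tRNA median, though the genes were chosen by their mean height over the same lists. YNCP0023W on XVI (9.11 to 9.87) and YNCE0016C on V (8.78 to 9.84) completed the 5 highest.

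At the other end, YNCC0001C (III 82462 to 82533) had 1.90, 1.81, 2.00 and 1.87, below the median of all sub-peaks in every list. YNCL0002C on XII, YNCP0008C on XVI, YNCH0002C on VIII and SUF16 on III, a glycine tRNA gene also known from frameshift suppressors, followed with values between 2.39 and 2.65. The 5 lowest and the 5 highest genes were chosen by mean height over these same lists, so the gap between them is no separate result. The local background at the 4 genes other than YNCC0001C was the genome-wide one, while at SUF2 it was 1.95 to 2.05 times as high.

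Some genes are known for what surrounds them. YNCC0014W (III 295484 to 295556), whose neighbours are HMRA1 and GIT1, borders the silent mating locus HMR, where a tRNA gene acts as a barrier to silent chromatin. Its relative pileup was 7.38, 7.38, 7.33 and 7.22, above the third quartile of tRNA genes in all lists. SUP61 (III 227942 to 228042), the only gene for its serine tRNA and essential in yeast, had 7.78, 7.87, 7.89 and 7.57. TRT2 (XI 46735 to 46806), which lies near STE6 and is known for limiting repression there in alpha cells, was low with 2.77, 2.57, 2.57 and 2.59.

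Copies within a family differed in height. The 8 tyrosine genes with suppressor alleles (SUP2 to SUP8 and SUP11) had mean heights from 3.26 to 6.41 with a median of 4.77, spanning most of the range between the quartiles of all tRNA genes and beyond. SUP11 (VI) was the lowest with 3.20 to 3.31, and SUP2 (IV) the highest with 6.24 to 6.72. The initiator methionine genes IMT1 to IMT4 had means from 4.03 to 5.77, and the elongator methionine genes EMT1 to EMT5 from 3.01 to 5.90. The leucine genes SUP53, SUP54 and SUP56 had means from 6.65 to 9.18, and the serine genes SUP16, SUP17 and SUP19 from 4.84 to 7.39. The 9.18 of SUP53 averages 6.76 and 7.20 in code 8 with 10.6 and 12.1 in code 11.

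**Figure D2:**
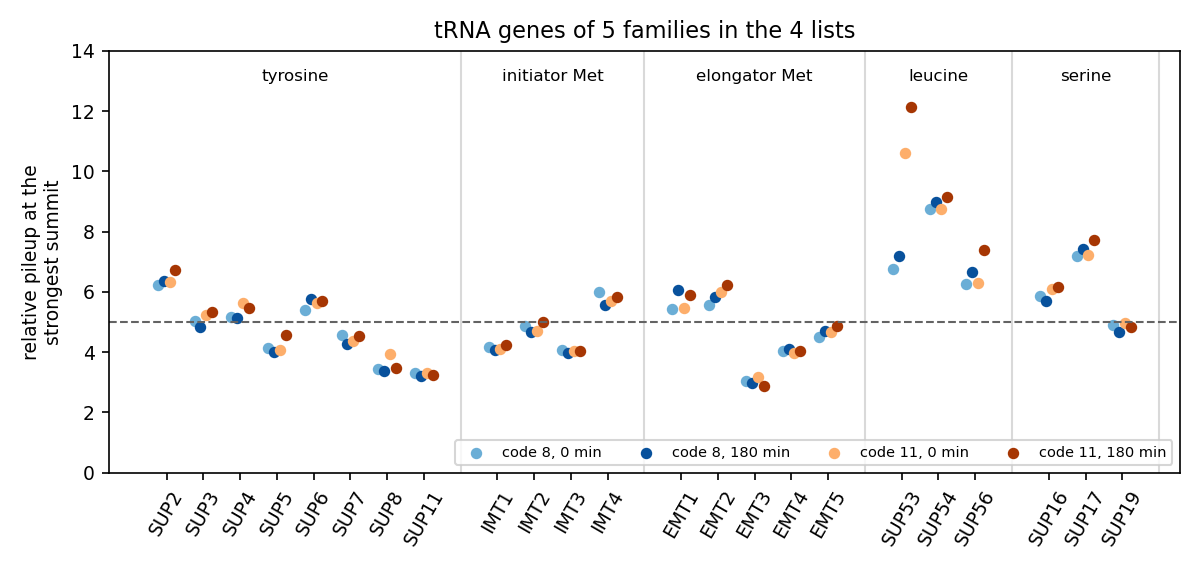
Relative pileup at the strongest summit for members of 5 tRNA gene families, each point 1 list, with colours for strain code and time and a dashed line at the median of all tRNA genes (4.98). Copies of a family stand at different heights that the lists mostly repeat, while SUP53 was higher in code 11 (10.6 and 12.1) than in code 8 (6.76 and 7.20).

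Only the longest class of genes was higher. The 43 genes of at least 96 bp, up to 133 bp, had a median mean height of 6.31, against 4.84 for 189 measured genes of up to 80 bp and 4.61 for 40 genes of 81 to 95 bp. The chromosome medians ran from 3.86 on VIII and 3.99 on XII to 6.56 on III. Distance to the nearest protein-coding start went with little difference, as the medians were 5.21 within 200 bp, 4.81 up to 500 bp, 5.28 up to 1000 bp and 4.88 beyond. These medians are over genes of the same lists and describe the set.

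The summit sat on the 3′ side of the gene. Measured along the coding strand, the strongest summit lay a median of 83.5 bp (0 min) and 80 bp (180 min) from the gene start in code 8, and of 83.5 and 76.5 bp in code 11. This is near the 3′ end, with a median of 5.0, 2.0, 4.5 and 0.0 bp past it. The summit was inside the gene for 105 to 125 genes, downstream of the end for 135 to 155 and upstream of the start for 10 to 12. It was 3′ of the gene midpoint for 82.4 to 85.3% of the genes, and the median offset from the midpoint was 39.5 to 45.5 bp for genes on the W strand and 37 to 41 bp for genes on the C strand. Both strands thus gave the same side relative to transcription.

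**Figure D3:**
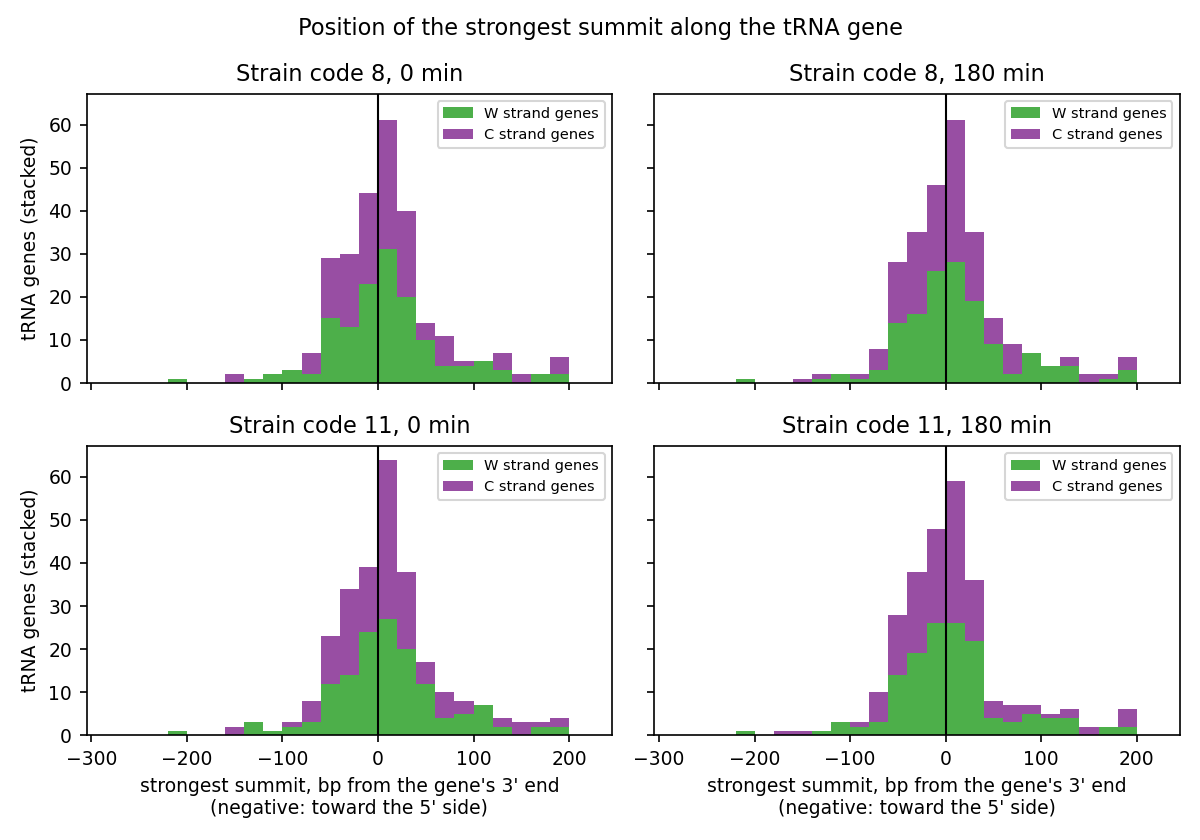
Position of the strongest summit relative to the 3′ end of its tRNA gene, in bp along the coding strand, stacked for genes on the W and C strands. The 4 lists peak at the 3′ end (medians of 5.0, 2.0, 4.5 and 0.0 bp past it), with a longer tail downstream.

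The exceptions included well-known genes. At SUP6 (VI 210619 to 210707), a tyrosine gene, the strongest summit lay 123 to 155 bp on the 5′ side of the 3′ end, upstream of the 89 bp gene. At SUP11 it lay at the gene start, 82 to 95 bp from the 3′ end. At IMT3 (X 517813 to 517884), which had 2 summits of like height, the strongest lay 129 and 131 bp past the 3′ end at 0 min and inside the gene at 180 min. A change in which summit had the larger -log10 q therefore moved the position of IMT3 without a change in the number of summits.

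From 0 to 180 min the calls at tRNA genes stayed in place. No gene lost or gained its summit in the window in either code (0 of 272 and 0 of 3). At the level of single sub-peaks, 1 of 304 tRNA sub-peaks at 0 min had no summit within 100 bp at 180 min in code 8, where 11.5% of all sub-peaks had none. The reverse was 1 of 305 against 8.08%. In code 11 the counts were 2 of 304 against 11.6% and 7 of 305 against 5.77%. The tRNA sub-peaks were taller than most, and tall sub-peaks elsewhere also mostly had a partner. Where the relative pileup reached 4 or more at 0 min, sub-peaks elsewhere lacked a partner in 1.01% (code 8) and 1.11% (code 11) of cases, and tRNA sub-peaks in 1 of 223 and 1 of 220. At 180 min the shares elsewhere were 0.567 and 0.633%, with 0 of 215 and 3 of 220 tRNA sub-peaks.

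The height of matched summits changed little. The median log2 change of relative pileup was -0.02 over 303 tRNA summits in code 8 (order-statistic 95% interval over summits -0.04 to -0.002) and 0.02 over 302 in code 11 (0.01 to 0.03), and both medians turned sign when heights were scaled by the median of all matched summits. All other matched summits had medians of -0.03 and 0.04. The spread was smaller at tRNA genes, with an SD over summits of 0.11 against 0.16 in code 8 and 0.10 against 0.13 in code 11. In code 8, 1 of 303 tRNA summits was at least 25% higher at 180 min, where 3.35% of all matched summits were, and 1 was at least 20% lower, against 1.82%. Most of the summits that were higher in code 8 lay on chromosome IV, where 23.1% of 836 matched summits were (1 of 32 at tRNA genes), against 0.173% of 5202 on the other chromosomes (0 of 271). In code 11 the counts were again 1 and 1 of 302, against 1.20 and 0.783%. Counting error alone gives a typical standard error of 0.04 on these log2 changes.

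Where the 0 min relative pileup was 4 or more, the tRNA median in code 11 was 0.04 (219 summits, SD 0.09) and that of the others 0.09 (1956 summits, SD 0.11), a difference of -0.05. In code 8 both medians were -0.01, in 222 and 1952 summits, with SDs of 0.10 and 0.13. With chromosome IV also left out, the SDs in code 8 were 0.09 for 197 tRNA summits and 0.10 for 1685 others. The difference in spread in code 8 was thus smaller among tall summits off chromosome IV than over all matched summits.

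The 4 tRNA summits past these limits lay at 4 genes. YNCD0008W (IV 519743 to 519826) went from a relative pileup of 3.10 to 3.89 in code 8 (log2 change 0.33), while code 11 had 3.06 and then 3.33. The lower of the summits at YNCC0005W (III 127716 to 127789) went from 3.91 to 2.94 in code 8 (-0.41), while the strongest summit of that gene had 5.76 and then 5.78. At YNCM0007C (XIII 183898 to 183968) the values were 2.44 and 2.42 in code 8 but 2.43 and 3.47 in code 11 (0.51). YNCL0036C (XII 687859 to 687932) was lower at 180 min in both codes, going from 4.06 to 3.32 in code 8 (-0.29), while code 11 had 4.28 and then 3.32 (-0.37).

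Per gene, the other large changes by the strongest summit were modest. In code 8 the other large falls were -0.25 at YNCK0016W (XI), YNCE0004C (V) and YNCA0006C (I), which had 0.11, 0.03 and 0.02 in code 11. The other large rises in code 8 were 0.32 at YNCD0006W, 0.26 at YNCD0004W and 0.25 at YNCD0005C, all on IV and described below. In code 11 YNCL0009C (XII), YNCE0021C (V) and SUP56 (I) had 0.25, 0.24 and 0.23, against 0.13, 0.02 and 0.09 in code 8. YNCL0051C (XII) had -0.29 in code 11 and -0.22 in code 8, YNCJ0001C (X) had -0.27 and 0.24, and YNCO0012C (XV) had -0.21 and -0.09. Across the 272 genes the changes of the codes correlated weakly (Pearson 0.21, Spearman 0.23, across genes, as a description), with 81 genes higher in both, 74 lower in both, 33 higher in code 8 and lower in code 11, and 84 the reverse. These signs depend on the scale of each list, as all other matched summits had medians of -0.03 in code 8 and 0.04 in code 11. The share of each pair of signs over all matched summits was not counted.

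Chromosome IV, the chromosome whose centromere the design excises, carries 28 tRNA genes, and all had a summit in the 4 lists. In code 8 their median log2 change from 0 to 180 min was 0.14 (SD over genes 0.11) and 26 of 28 were higher at 180 min. The 244 measured genes of the other chromosomes had a median of -0.04 (SD 0.09) with 88 higher, and the chromosome medians among them ran from -0.07 on V to 0.01 on III. In code 11 the chromosome IV median was 0.03 and that of the others 0.02, with 21 of 28 and 144 of 244 higher. The 804 other matched summits of chromosome IV in code 8 had a median of 0.21, so the tRNA median lay between that of its chromosome and that of tRNA genes elsewhere. Where the 0 min relative pileup was 4 or more, the medians were 0.14 for 25 tRNA summits and 0.19 for 267 others.

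The local background around the genes went up with the summits. Over the 28 genes its median log2 change in code 8 was 0.20, and 21 of 28 had a higher one at 180 min. Taken as fold over local background, the median change of the 28 genes was -0.10 and 9 of 28 were higher, so the direction depends on which background is used. At 9 of these genes the local background was within 5% of the genome-wide one at both times. There the fold is nearly the same quantity as the relative pileup, so it gives no separate reading. Its median change at these 9 genes was 0.10, with 7 of 9 higher. The recovered background never lies below the genome-wide one, so a local rise beneath that level would not show. In code 11 the local background had a median change of 0.00, and the fold of 0.05.

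The change in relative pileup was greatest near the centromere. In code 8 the median was 0.28 for 2 genes within 25 kb, 0.24 for 5 genes at 25 to 100 kb, 0.16 for 4 at 100 to 200 kb and 0.10 for 17 beyond. The 31 tRNA genes within 25 kb of the other centromeres had a median of 0.00. YNCD0006W (IV 437772 to 437853), 11.9 kb from the centromere, went from 4.82 to 6.02 in code 8 (log2 change 0.32, counting standard error 0.04), while code 11 had 4.73 and then 4.3 (-0.14). YNCD0005C (IV 434264 to 434336), at 15.4 kb, went from 6.71 to 7.96 in code 8 (0.25), while code 11 had 6.35 and then 6.50 (0.03). YNCD0004W (IV 410379 to 410451), at 39.3 kb, went from 7.56 to 9.07 in code 8 (0.26), while code 11 had 7.24 and then 8.01 (0.15). Fold over local background at these 3 genes in code 8 went the other way, from 4.20 to 3.63, from 5.45 to 4.49 and from 3.08 to 2.67. The 2 genes of chromosome IV that were lower at 180 min in code 8 were YNCD0015C (-0.11) and YNCD0019C (-0.12). YNCD0011W and YNCD0012W share a summit and count as 2 genes here.

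**Figure D4:**
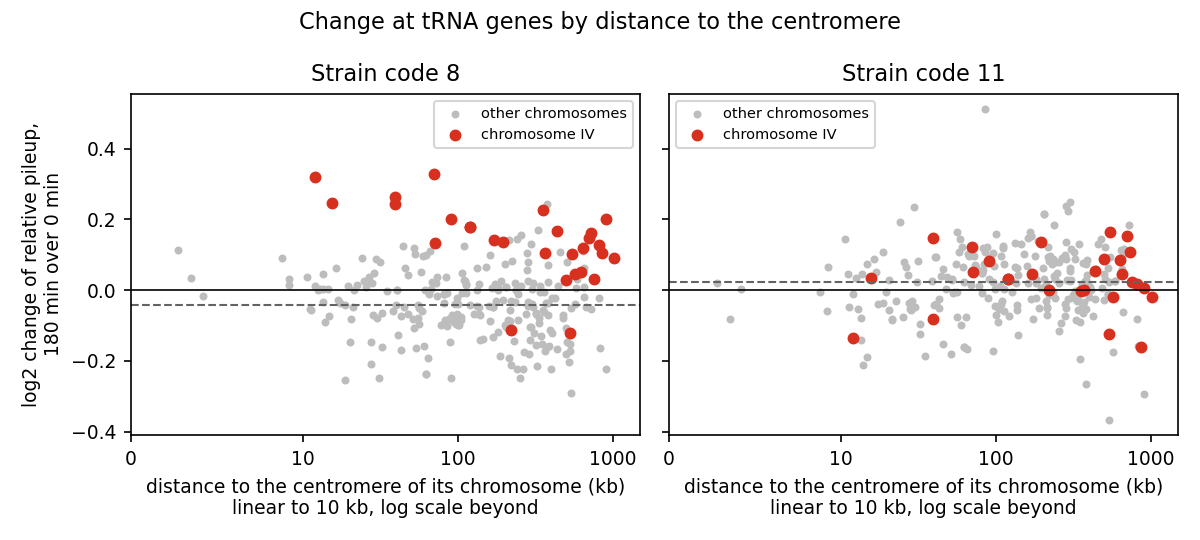
Log2 change of relative pileup from 0 to 180 min at each tRNA gene against its distance to the centromere of its own chromosome, for both strain codes. Red points are the 28 genes of chromosome IV, grey points the 244 genes of other chromosomes and the dashed line their median (-0.04 in code 8 and 0.02 in code 11). In code 8, 26 of 28 red points lie above 0.

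The position of the summits shifted by a few bp in code 11. There the strongest summit lay a median of 4 bp closer to the 5′ side at 180 min than at 0 min (interval over genes -5 to -4 bp), with 211 of 267 genes toward 5′, 47 toward 3′ and 9 in place. W strand genes gave 108 toward 5′ and 23 toward 3′, and C strand genes 103 and 24, so the direction followed transcription and not the chromosome. In code 8 the median was -1 bp (-2 to 0) with 145 of 268 toward 5′ and 93 toward 3′. Promoter summits elsewhere, taken along their gene, had a median of 0 bp in both codes, with 2172 toward 5′ and 1920 toward 3′ in code 11 and 1973 and 2027 in code 8. This comparison was chosen after the values were seen. Genes whose strongest summit moved by over 100 bp, 4 in code 8 and 5 in code 11, were left out as a switch between summits.

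**Figure D5:**
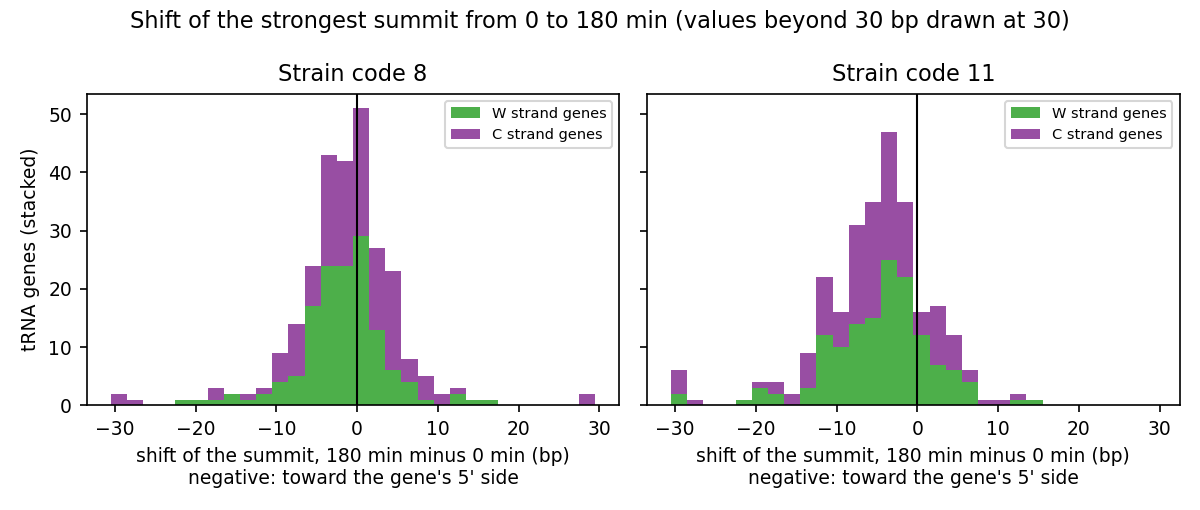
Shift of the strongest summit from 0 to 180 min along the coding strand, in bp, for 268 genes in code 8 and 267 in code 11, stacked by strand, with values beyond 30 bp drawn at 30. In code 11 both strands lie mainly on the 5′ side (median -4 bp), in code 8 the median is -1 bp.

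Between the codes a single gene stood apart at both times. SUP53 (III 90859 to 90972), a leucine tRNA gene, lies directly upstream of LEU2, a leucine synthesis gene widely used as a selection marker. At 0 and 180 min its relative pileup was 6.76 and 7.20 (code 8) against 10.6 and 12.1 (code 11). The log2 difference of code 11 over code 8 was 0.65 at 0 min and 0.75 at 180 min, while the other 271 genes had an SD of 0.07 and 0.11. At 0 min, 0.233% of all matched summits were at least 25% higher in code 11, with 2 of 300 tRNA summits, and 0.0621% at least 20% lower, with 0 of 300. At 180 min the shares were 2.46 and 3.05%, with 4 and 1 of 301 tRNA summits. The lower summits made up 20.6% of 835 on chromosome IV and 0.213% of 5172 elsewhere. Around SUP53 a single called region spanned 2306 bp in code 11 at 0 min, reaching across LEU2, with 6 summits of 2.44 to 10.6. In code 8 the same stretch held 2 regions with summits of 1.23 to 1.74 apart from that of SUP53. SUP53 was chosen after its values were seen.

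Other genes read by RNA polymerase III were also open. RPR1, the RNA of RNase P that trims tRNA precursors, had a relative pileup of 16.4, 18.0, 18.4 and 21.7 in the order used above. SCR1, the RNA of the signal recognition particle, had 15.3, 15.0, 14.9 and 16.6. Both stood above every tRNA gene in every list. SNR52, a small nucleolar RNA gene, had 8.02 to 8.21 with its summit 43 to 47 bp upstream of the start. SNR6, the U6 spliceosomal RNA gene, had 3.49 to 3.64, and RNA170 had 4.53, 3.78, 4.41 and 4.45. Of the 6 annotated 5S rRNA genes, RDN5-1 and RDN5-6 had a summit in the window and RDN5-2 to RDN5-5 had none. They lie in or beside the rDNA repeats, where reads of identical copies cannot be told apart.

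Promoters of the polymerase III machinery had small median changes, with larger ones at single genes. Of 22 genes for the enzyme, TFIIIC, TFIIIB and the repressor MAF1, 14 had a promoter summit in code 8 at both times, and 15 at 0 min and 14 at 180 min in code 11. Over all 6002 protein-coding genes 64.3 to 65.6% had one, so the machinery share was near the background. The summit missing at 180 min in code 11 was that of SPT15, the TATA-binding protein. Among all coding genes with a promoter summit at 0 min, 3.73% in code 8 and 4.39% in code 11 had none at 180 min. In code 8 the median log2 change of the 14 was -0.05, and in code 11 it was -0.002. MAF1 (IV 456836 to 458103), which represses polymerase III when nutrients are short, lies near the centromere of IV, whose midpoint is at 449748. Its promoter summit went from 2.40 to 3.45 in code 8 (0.53), while code 11 had 2.10 and then 2.43 (0.21). Matched summits of chromosome IV not at tRNA genes had a median change of 0.21 in code 8. Fold over local background was not compared for the promoters of these genes. TFC6, a TFIIIC subunit gene also on IV, had 0.24 in code 8 and 0.08 in code 11. TFC3, a TFIIIC subunit gene on I, went from 3.6 to 2.98 in code 8 (-0.27), while code 11 had 2.22 and then 2.20 (-0.02). TFC4, a TFIIIC subunit gene on VII, had 3.83 and then 3.71 in code 8 (-0.05), while code 11 went from 3.09 to 3.70 (0.26). Of 11 genes of tRNA maturation 5 had a promoter summit at 0 min and 6 at 180 min in both codes. The added one was TPT1, the phosphotransferase of tRNA splicing, at 1.91 in code 8 and 2.04 in code 11. Among all coding genes with no promoter summit at 0 min, 6.43% in code 8 and 4.46% in code 11 had one at 180 min. LHP1, the yeast La protein that binds new polymerase III transcripts and lies on IV, went from 5.91 to 7.57 in code 8 (0.36), while code 11 had 6.08 and then 6.44 (0.08).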

How the data were processed

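Open chromatin was profiled by ATAC-seq with paired-end reads of 100 bases, per the labels' protocols. MACS2 2.2.4, Bowtie2 2.3.4.3, HOMER, Picard and SAMtools are named in the submitters' processing notes, with sacCer3 as the build, and RTA 2.7.7 and bcl2fastq 2.20.0.422 in the protocols. A Tn5 shift of the reads, or pooling of the experiments of a group, was not given in the sources used here. Codes and times were read from the names of the deposited lists.

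The deposited lists give, per sub-peak, a score (10 times the -log10 p, truncated, in 100% of cases), a fold enrichment (a ratio over local background), and the -log10 p-value and q-value of the authors' caller. The values belong to the authors. Summit pileup and local background were solved from fold = (pileup + 1)/(background + 1) and p as the upper Poisson tail, and the solution was checked on simulated data. Whole pileups (within 0.05) came out in 99.1 to 99.8% of sub-peaks. Relative pileup is the pileup over the lowest recovered background. Depth in reads is unknown, and intervals cover counting error or the spread over genes only.

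RefSeq's R64 gene table (the assembly behind sacCer3) gave coordinates for all 275 tRNA genes and a symbol for 47 of them, without amino acid, intron or sequence, so the planned groups by amino acid, intron and box sequence were replaced by length classes and families known by symbol. Strands were read from the W or C of the systematic name, and centromeres are midpoints between the flanking genes. Promoter windows took 400 bp before a start and 100 bp after it. Summits of a code were matched as mutual nearest within 100 bp. Python 3.11.15, numpy 2.4.6, scipy 1.17.1, pandas 2.3.3 and matplotlib 3.10.9 were used.

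The members, lists and alternatives were chosen with earlier results of these data known. The genes named are the 5 highest and 5 lowest by mean height, the 4 largest rises and falls per code, genes within 25 kb of CEN4, genes with no summit, and a fixed list of known genes. That list took TRT2 for the gene beside HMR, but the table puts TRT2 on XI, so YNCC0014W is given for that place. Named after their values were seen are SUP53, the genes of chromosome IV that were lower at 180 min and those of summits at least 25% higher or 20% lower. No sequence is printed, since the reference used here holds none.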

Additional observations from a re-analysis of the deposited data

Results flagged for a closer look

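YNCJ0001C (X 59100 to 59172) changed in opposite directions in the codes. From 0 to 180 min its relative pileup went from 2.88 to 3.41 in code 8, while code 11 had 3.78 and then 3.14, log2 changes of 0.24 and -0.27. The counting standard errors were 0.06 and 0.05. It stood out because it is the gene with a change of at least 0.2 (log2) in one direction in one code and in the other direction in the other code. The strongest summit was not at one place, lying 66 bp on the 5′ side of the 3′ end in code 8 at 0 min and 81 to 93 bp in the other lists. With 1 list per code and time the difference between the codes was not tested.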

How the results depend on the processing

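No paired analysis was possible because the lists carry no replicate numbers. Of 132 alternative values over 24 results, 114 moved by less than the spread or interval over genes or summits, or stayed within 1.5 times for counts. Among these, the median difference of tRNA from other summits in code 8 was 0.006 and turned negative, to between -0.006 and -0.002, under 5 of its alternatives, so its sign depends on the processing. The median change turned to 0.00797 in code 8 and to -0.001649 in code 11 when heights were scaled by the median of all matched summits. This alternative by construction gives the matched summits of both lists the same median height. Genes losing a summit in code 8 numbered 1 with a 500 bp window and 1 with a -log10 q of at least 100, and genes gaining one 1 with a 100 bp window and 1 with that q. In code 11, 1 was lost with that q and 2 were gained with the 100 bp window. At 1.5-fold, 0 summits were called higher and 0 lower in either code. In code 8, 2 were called higher with the median scaling and 0 without chromosome IV. The difference from other summits in code 11 was -0.035 with a -log10 q of at least 100. The share of genes above the list median at 0 min was 96.3% in code 8 and 98.2% in code 11 by -log10 q, and 91.8% in code 11 over all summits in the windows. The causes of these changes were not tested. With 1 list per code and time, no spread between replicates is known, and a summit under the authors' threshold is not shown to be absent.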

Other observations

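Further summits near tRNA genes numbered 40 or 41 per list. They were nearly as tall as the strongest summit of their gene, with a median ratio of 0.82 to 0.85, and lay on either side of the gene, 15 to 17 of them 5′ of the midpoint and 23 to 26 of them 3′ of it. The local background at the strongest tRNA summit was within 5% of the genome-wide one for 125 to 136 of 272 genes, a share of 46.0 to 50.0% against 47.8 to 49.0% of all sub-peaks.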
